A study of Homo sapiens with 2 samples.

Results

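The genes described here are a published list of 41 genes whose transcripts are abundant while a cell copies its DNA, in the S phase of the cell cycle. They were found by symbol among the 32738 genes of the count matrix. The symbols of 38 were present, and UHRF1, MLF1IP and CASP8AP2 were not found under those names. CENPU, the present symbol of MLF1IP, had 59.4 CPM (UMIs per 1000000 UMIs of the same cells) and was kept out of the list.

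The data were 10x 3′ counts from nonadherent cells on day 5 of the endothelial-to-hematopoietic transition (EHT), the step at which hemogenic endothelium gives rise to blood cells. CD34+ cells made from aggregates of the human induced pluripotent stem cell line iPS11 had been plated on 4 surfaces, namely uncoated, VCAM1, DLL4 and DLL4+VCAM1. The coating proteins were Fc-tagged forms of the Notch ligand DLL4 and of the adhesion molecule VCAM1. For each surface, 3 wells were pooled and stained with 1 hashtag antibody, and the 4 pools were combined into 1 library. The labels do not say which hashtag (0252, 0253, 0254 or 0255) marked which surface, so hashtags are compared by number only. All cells came from 1 line and 1 library, so no value below has a replicate and no test between groups was possible. Intervals are 95% exact intervals for counting error only.

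Of 10836 barcodes, 7550 had a single hashtag call and at most 36000 UMIs, 6000 genes and 18% mitochondrial UMIs. They held 142110950 UMIs, with a median of 18319 per cell. The 38 S phase genes held 428640 of these, or 3016 CPM. Each of the 38 passed a minimum of 100 UMIs.

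Cells were grouped by marker gates that share no gene with the list. A gate on C1QA, C1QB and C1QC (genes of macrophages), S100A8 and S100A9 (neutrophil and monocyte genes), EPX and PRG2 (eosinophil granule genes), the globin genes, or COL1A1, COL1A2 and COL3A1 (collagens of stromal cells) needed a summed level of 500 CPM. Cells in none of these with SPINK2 at 100 CPM or more formed the SPINK2 gate, and of the rest those with a UMI of both CD34 and GATA2 formed the CD34/GATA2 gate. SPINK2, CD34 and GATA2 are transcribed in blood stem and progenitor cells. ELANE, and PF4 with PPBP, were gated at the same minimum, and cells above it were also kept out of the SPINK2 and CD34/GATA2 gates. ELANE was not counted in cells above the S100A8 or EPX minimum. The 253 cells that were above several of the minimums were set aside as a group of their own. ELANE alone held 10 cells and PF4/PPBP alone held 6, so ELANE is given no separate account and the platelet genes PF4 and PPBP were followed in the 108 cells that had 500 CPM of them, whatever else they carried. Of these, 102 were also above the globin minimum.

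Genes that had not been used for the gates followed the gate names in most cases. CSF1R reached 283 CPM in the C1Q gate, 122 CPM in the S100A8 gate and 37.5 CPM in the SPINK2 gate. CLC was at 4342 CPM in the EPX gate and 5.21 CPM in the S100A8 gate, but RNASE2 was at 287 and 525 CPM there. GYPB was at 609 CPM in the globin gate and 120 CPM in the CD34/GATA2 gate. ITGA2B, chosen for the PF4/PPBP gate, was at 318 CPM there and 309 CPM in the globin gate. MPO, chosen for the ELANE gate, was at 12220 CPM there and 8132 CPM in the S100A8 gate. TAGLN reached 3498 CPM in the collagen gate and 2.71 CPM in the SPINK2 gate. LYZ was at 1657 CPM in the S100A8 gate, but the mature granulocyte gene LTF had 0 UMIs there and CAMP stood at 0.601 CPM. The progenitor genes MYB and HLF did not set the SPINK2 and CD34/GATA2 gates apart. MYB was at 50.1 and 59.2 CPM there but at 61.0 CPM in the S100A8 gate and 84.5 CPM in the EPX gate. HLF was at 1.48 and 1.37 CPM in the SPINK2 and CD34/GATA2 gates and at 1.58 CPM in the EPX gate. KIT was at 11.6 and 8.93 CPM in them, 5.51 CPM in the S100A8 gate, 7.23 CPM in the EPX gate and 8.01 CPM in the globin gate. Cells in no gate had 10.1 CPM of KIT. MECOM was at 19.2 and 23.6 CPM, against 10.4 CPM in the S100A8 gate and 13.3 CPM in the EPX gate, but at 24.8 CPM in the globin gate.

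S phase opens when cyclin-dependent kinases inactivate the RB proteins and E2F transcription factors drive a common set of genes. The MCM helicase is loaded at origins, unwinds DNA together with CDC45 and the GINS complex, and is followed by primase and polymerases tethered to the ring-shaped clamp PCNA. TYMS, RRM1 and RRM2 supply deoxynucleotides, CLSPN and TIPIN protect the fork, and NASP, CHAF1B and SLBP provide and deposit histones. CDK inhibitors such as CDKN1A and CDKN1C block this program in resting or maturing cells. Blood progenitors divide quickly, whereas many of their descendants leave the cycle.

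The promoters of some members carry words that E2F proteins are known to bind. RefSeq promoter sequences (GRCh38.p14, 250 bases before to 50 bases after each start) were found for 29 of the 38 genes. Either strand of TTTCCCGC, TTTGGCGC, TTTCGCGC or TTTGCCGC was present in 13 of the 29 (44.8%), against 3.32% of 35116 promoters in the table. TTTGCCGC matched in no member, and words on opposite strands can overlap, as in MCM6. Replication genes outside the list had a word in 11 of 29 promoters (37.9%) and genes of the mitosis list in 3 of 44 (6.82%). CCAAT on either strand was in 69.0% of the members' promoters, 68.2% of those of the mitosis list and 34.6% of all. These are matches of letters in a window and do not show binding.

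Stretches from 5 of these promoters are shown because they span the patterns seen: paired words in MCM6, separate words in HELLS, a single word in PCNA and TYMS, and no word in NASP, the member with most UMIs. Capitals mark the E2F words, and each stretch reads along the gene's own strand and ends ahead of the annotated start. Positions of the stretches are on GRCh38.p14. MCM6 (chr2:135876513-135876603, minus strand) encodes a subunit of the helicase. HELLS (chr10:94545698-94545787, plus strand) encodes a chromatin remodeller. PCNA (chr20:5126623-5126712, minus strand), TYMS (chr18:657563-657652, plus strand) and NASP (chr1:45583951-45584040, plus strand) are the 3 members with most UMIs.
MCM6: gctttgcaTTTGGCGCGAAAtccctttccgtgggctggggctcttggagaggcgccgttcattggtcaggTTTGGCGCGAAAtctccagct
HELLS: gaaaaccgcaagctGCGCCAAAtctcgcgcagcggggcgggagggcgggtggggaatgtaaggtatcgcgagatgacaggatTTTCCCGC
PCNA: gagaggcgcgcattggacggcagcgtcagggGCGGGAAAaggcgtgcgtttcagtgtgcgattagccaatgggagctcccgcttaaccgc
TYMS: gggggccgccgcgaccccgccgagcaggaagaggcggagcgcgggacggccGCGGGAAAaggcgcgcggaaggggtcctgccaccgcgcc
NASP: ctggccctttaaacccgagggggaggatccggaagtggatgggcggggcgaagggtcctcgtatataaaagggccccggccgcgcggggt

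A few genes carried most of the list. NASP, a histone chaperone, was at 491 CPM and held 16.3% of the list's UMIs. TYMS (thymidylate synthase) followed at 252 CPM, PCNA at 177 CPM, CLSPN (the checkpoint mediator claspin) at 152 CPM and GMNN (geminin, which prevents a second loading of origins) at 141 CPM. Together with HELLS at 133 CPM, MCM5 at 106 CPM and MCM4 at 102 CPM, these 8 genes made up 51.5% of the list. Levels are UMIs at 3′ ends and were not divided by gene length.

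The helicase and origin group had 9 members at 673 CPM in sum. Besides the MCM genes and GMNN it held GINS2 at 93.0 CPM, MCM6 at 88.8 CPM, MCM2 at 53.8 CPM, the MCM loader CDC6 at 31.4 CPM, CDC45 at 29.9 CPM and DTL, which marks the licensing factor CDT1 for destruction, at 27.5 CPM. The polymerase and clamp group had 8 members at 538 CPM. Its clamp loader subunit RFC2 was at 93.3 CPM, the flap nuclease FEN1 at 83.3 CPM, RPA2, which coats single-stranded DNA, at 71.5 CPM, the polymerase delta subunit POLD3 at 48.2 CPM, the primase PRIM1 at 29.3 CPM, DSCC1 at 19.2 CPM and POLA1 at 15.9 CPM.

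Nucleotide supply was served by TYMS and by both ribonucleotide reductase genes, RRM2 at 87.3 CPM and RRM1 at 85.9 CPM. In the histone and chromatin group, CDCA7 was at 97.9 CPM, ATAD2 at 95.2 CPM, the histone mRNA binding protein SLBP at 93.6 CPM, UBR7 at 18.3 CPM and the assembly factor CHAF1B at 16.2 CPM. Fork protection and repair genes were lower on the whole, with the deubiquitinase USP1 at 78.2 CPM, RAD51AP1 at 41.6 CPM, the helicase BLM at 37.1 CPM, the uracil glycosylase UNG at 33.0 CPM, TIPIN at 28.0 CPM, WDR76 at 24.6 CPM, the nuclease EXO1 at 11.5 CPM and the helicase BRIP1 at 9.08 CPM. The transcription factor E2F8 at 10.7 CPM and cyclin E2 (CCNE2) at 8.38 CPM closed the list.

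**Figure D1:**
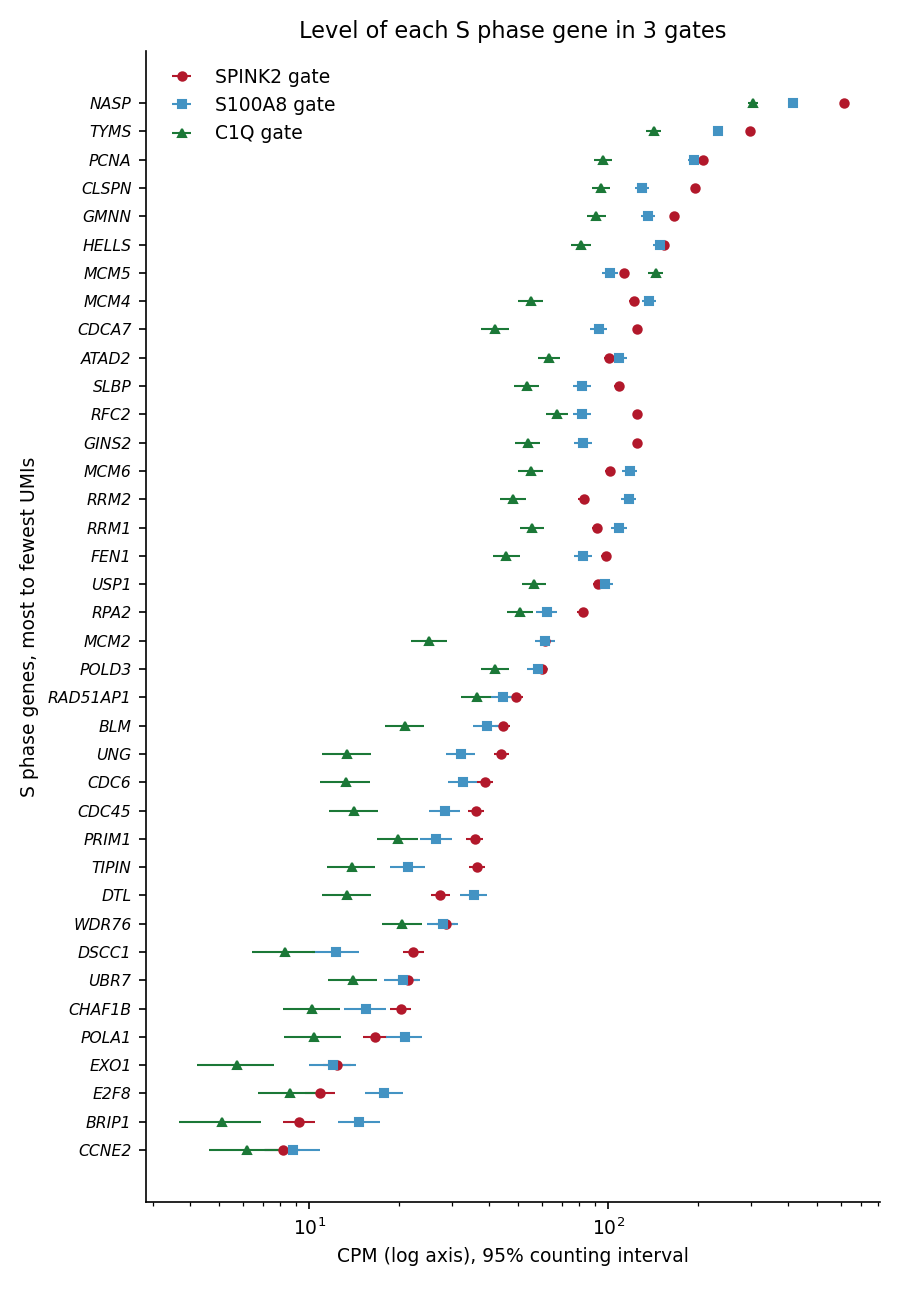
CPM of each of the 38 genes (log axis, 95% counting interval) in the SPINK2, S100A8 and C1Q gates, with genes ordered by total UMIs. The C1Q symbols lie to the left of the SPINK2 symbols for nearly every gene, and MCM5, at 144 CPM in the C1Q gate and 113 CPM in the SPINK2 gate, is the clear exception.

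The summed level was highest in the SPINK2 gate and lowest in the collagen gate. It was 3585 CPM in the 1346 cells of the SPINK2 gate, 3106 CPM in 238 EPX cells, 3055 CPM in 611 S100A8 cells, 3019.7 CPM in 1922 CD34/GATA2 cells, 2499 CPM in 408 globin cells, 1901 CPM in 593 C1Q cells and 1208 CPM in 75 collagen cells. The 108 PF4/PPBP cells were at 1715 CPM. The 253 cells above several minimums were at 1854 CPM. All 540 cells above the globin minimum, whatever else they carried, were at 2317 CPM, lower than the 408 cells of the globin gate. Cells in no gate were at 3118 CPM. The SPINK2 gate was 1.19 times the CD34/GATA2 gate (1.18 to 1.2), 1.89 times the C1Q gate (1.85 to 1.92) and 2.97 times the collagen gate (2.82 to 3.13). The CD34/GATA2, S100A8 and EPX gates lay close together. CD34/GATA2 over S100A8 was 0.989 (0.976 to 1.0) and EPX over S100A8 was 1.02 (0.997 to 1.04), so counting error alone covers both of these gaps.

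Depth and mitochondrial share moved with the level within most gates, and followed its order between gates only in part. The median was 19863 UMIs in the SPINK2 gate, 20041 in the CD34/GATA2 gate, 19139 in the globin gate, 15451 in the S100A8 gate, 16086 in the collagen gate and 12615 in the C1Q gate. The globin gate was deeper than the S100A8 gate and lower in S phase CPM. The CD34/GATA2 gate was also deeper than the S100A8 gate, but counting error covers the gap in level between them. The median mitochondrial share was 12.5% in the SPINK2 and EPX gates. It was higher in the C1Q (13.9%), CD34/GATA2 (14.0%) and globin (14.2%) gates, which were lower in level. The S100A8 gate had a share of 10.8%. The collagen gate, lowest in level, also had the lowest median mitochondrial share, at 9.17%. Within the C1Q gate, split into 5 groups by total UMIs, the S phase level was 1025 CPM in the shallowest group and 2466 CPM in the deepest. In the CD34/GATA2 gate the level was 1865 CPM in the shallowest and 3458 CPM in the deepest group, and 3616 CPM in the group with the lowest mitochondrial share against 2097 CPM in the highest. The collagen gate ran the other way, with 1453 CPM in the shallowest and 1132 CPM in the deepest 15 cells, and 805 CPM at the lowest and 1574 CPM at the highest mitochondrial share. Cells near in depth gave other ratios: among those with 15000 to 20000 UMIs the SPINK2 gate was 1.45 times the CD34/GATA2 gate, and CD34/GATA2 over S100A8 was 0.801. Among cells with 10 to 13% mitochondrial UMIs those ratios were 1.06 and 1.15. The globin gate, above the C1Q gate over all cells, was at 2314 CPM (2257 to 2372) and the C1Q gate at 2474 CPM (2407 to 2542) among cells with 15000 to 20000 UMIs. Among cells with 10 to 13% mitochondrial UMIs the globin gate was at 3196 CPM, near the EPX gate at 3165 CPM and above the S100A8 gate at 3080 CPM. The part of depth and of mitochondrial share in these differences was not tested, and the order of the CD34/GATA2 and S100A8 gates was not fixed by these data.

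**Figure D2:**
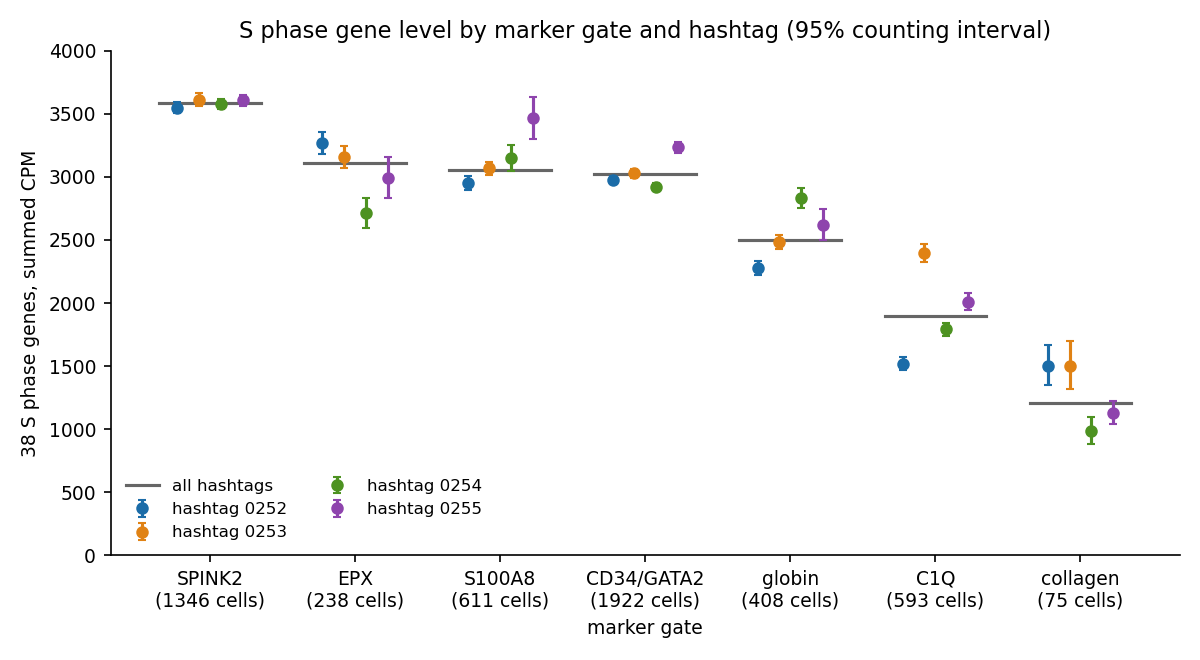
Summed CPM of the 38 genes by marker gate, with a point for each hashtag (95% counting interval) and a bar for all hashtags together. The SPINK2 points lie between 3548 and 3611 CPM, while the C1Q points spread from 1521 to 2397 CPM.

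The SPINK2 gate was raised a little for almost every gene rather than strongly for some. Over all other kept cells, 35 of 38 members were above 1 with a median of 1.23, against 49.7% of all 13489 genes with at least 100 UMIs. None reached 1.5-fold in either direction, where 2.85% of all genes were higher and 12.6% lower. GINS2 came nearest, with 125 CPM against 85.2 CPM elsewhere (1.47-fold, 1.41 to 1.53), followed by RFC2 at 1.46-fold, UNG at 1.45-fold, TIPIN at 1.41-fold and CLSPN at 1.38-fold. RRM2 was at 0.936 (0.894 to 0.979), CCNE2 at 0.965 and DTL at 0.999, and E2F8 and BRIP1 were at 1.02.

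In the CD34/GATA2 gate the members split, with 23 above and 15 below the other cells and a median fold of 1.02, where 45.5% of all genes were above 1 and their median was 0.981. DSCC1, part of the loader that places PCNA for sister chromatid cohesion, was the only one past 1.5-fold, at 26.6 CPM against 16.4 CPM (1.63-fold, 1.5 to 1.76). Of all genes, 6.09% were higher and 12% lower by that fold. CCNE2, UNG, CDCA7 and CDC45 came next, at 1.10 to 1.12-fold. E2F8 was lowest at 0.756, then MCM5, POLD3, RAD51AP1 and RFC2 between 0.848 and 0.867.

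The S100A8 gate had much the same sum as the CD34/GATA2 gate, but a few members stood apart. E2F8 was at 17.8 CPM against 10.2 CPM in other cells (1.75-fold, 1.49 to 2.05) and BRIP1 at 14.7 CPM against 8.66 CPM (1.70-fold, 1.42 to 2.02). MCM4 followed at 1.38-fold, RRM2 at 1.38-fold and MCM6 at 1.36-fold. DSCC1 was lowest at 0.623 (0.516 to 0.747), and TIPIN, NASP, CLSPN and RPA2 lay between 0.749 and 0.862. These 2 higher members and 1 lower member stand beside 14.6% and 15.8% of all genes, so few members lay that far out. DSCC1 and E2F8, named because they were extremes of the list, shifted in opposite directions between the CD34/GATA2 and S100A8 gates.

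In the EPX gate one member stood well above the rest. EXO1 was at 22.1 CPM against 11.1 CPM (1.99-fold, 1.61 to 2.44). RRM2 at 1.39-fold, POLA1 at 1.32-fold, BRIP1 at 1.25-fold and RRM1 at 1.25-fold followed. RFC2 was lowest at 61.9 CPM against 94.3 CPM (0.656, 0.580 to 0.740), then TIPIN, RPA2, RAD51AP1 and GINS2 between 0.713 and 0.837. RRM2 and BRIP1 were also among the 5 highest, and TIPIN and RPA2 among the 5 lowest, of the S100A8 gate. Of all genes, 8.81% were higher and 19.7% lower by 1.5-fold in this gate.

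The C1Q gate was low across the list. By 1.5-fold, 28 of 38 members (73.7%) were lower and none higher, where 24.9% of all genes were lower and 15.2% higher, and the median fold was 0.600 against 0.901 over all genes. UNG, which removes uracil from DNA, was at 13.4 CPM against 34.2 CPM (0.391, 0.321 to 0.473) and CDC6 at 13.3 CPM against 32.5 CPM (0.408). CDCA7 at 0.411, DSCC1 at 0.415 and MCM2 at 0.453 were next. The 10 members not lower by that fold included RAD51AP1 at 0.865, POLD3 at 0.861, WDR76 at 0.821 and E2F8 at 0.796.

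MCM5 went against the rest of the list in this gate. It was at 144 CPM (136 to 153) in C1Q cells and 104 CPM in all others, 1.39-fold higher, while the other 37 members were below 1, where 39.8% of all genes were above it. The other MCM genes were lower together, and MCM5 over the sum of MCM2, MCM4 and MCM6 was 1.07 (0.982 to 1.16) in the C1Q gate. That ratio was 0.321 in the S100A8 gate and between 0.398 and 0.417 in the SPINK2, CD34/GATA2, EPX and globin gates. It was 0.577 (0.397 to 0.829) in the collagen gate and 0.466 (0.45 to 0.482) in cells of no gate. The nearest protein-coding gene upstream on the same strand is HMOX1 (hg19 chr22:35776354-35790207), a heme oxygenase abundant in macrophages, whose end lies 5919 bases before the start of MCM5. HMOX1 was at 135 CPM in the C1Q gate and between 3.22 and 6.31 CPM in the SPINK2, CD34/GATA2, S100A8, EPX and globin gates. In the collagen gate it was at 21.8 CPM and in cells of no gate at 16.1 CPM. Within the C1Q gate, MCM5 was at 141 CPM in the 198 cells lowest for HMOX1, which had 0 UMIs of it, and at 137 CPM in the 198 cells with most, where HMOX1 was at 351 CPM. MCM4 was at 62.4 and 30.9 CPM, MCM6 at 67.1 and 35.5 CPM and MCM2 at 28.3 and 17.9 CPM in the same cells. MCM5 over their sum was 0.890 (0.770 to 1.03) in the first cells and 1.63 (1.37 to 1.94) in the second. The part of HMOX1 in the MCM5 level was not tested. Upstream neighbours were also looked up for DSCC1, EXO1, E2F8 and BRIP1. INTS2, 1807 bases before BRIP1, was at 16.3 CPM (13.9 to 19.0) in the S100A8 gate and 10.8 CPM in the SPINK2 gate. MRPL13, 524865 bases before DSCC1, was at 139 CPM in the CD34/GATA2 gate and 155 CPM in the SPINK2 gate. WDR64, 45189 bases before EXO1, was at 0 CPM in the EPX gate. DBX1, 914533 bases before E2F8, was at 0 CPM in the S100A8 gate. Their part was not tested either.

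In the globin gate fewer members were lower. By 1.5-fold, 5 of 38 members were lower (22.7% of all genes) and none higher (8.50%), and 6 members were above 1, as were 32.0% of all genes. The median fold was 0.784 against 0.880 over all genes. POLD3 was lowest at 21.6 CPM against 49.8 CPM (0.434, 0.372 to 0.503), then CDCA7 at 0.571, UNG at 0.571, E2F8 at 0.643 and GINS2 at 0.651. CCNE2 was at 11.3 CPM against 8.20 CPM (1.38-fold, 1.10 to 1.70), RRM2 at 1.14-fold, ATAD2 at 1.07-fold, RPA2 at 1.05-fold, CDC45 at 1.02-fold and SLBP at 1.01-fold. In the 108 PF4/PPBP cells 30 members were lower and none higher, where 37.9% and 12.9% of all genes were. POLD3 was again lowest there at 0.159 (16 UMIs), CDCA7 was at 0.274, CHAF1B at 0.296, BLM at 0.350 and POLA1 at 0.363. CCNE2 was the only member above 1, with 24 UMIs and a ratio of 1.40 (0.891 to 2.09), where 31.2% of all genes were above it, and RRM2, RPA2, SLBP and CDC6 lay between 0.785 and 0.927.

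In the collagen gate all 38 members were lower by 1.5-fold, where 32.8% of all genes were lower and 21.5% higher. The median fold was 0.387 against 0.866 over all genes. BRIP1 had 0 UMIs, and 3 UMIs would have been 2.43 CPM in these 75 cells. EXO1 had 2 UMIs (0.140, 0.0170 to 0.507), and PRIM1, MCM4 and DTL were between 0.192 and 0.234. TIPIN at 0.577, POLA1 at 0.558, USP1 at 0.556, RPA2 at 0.552 and RRM1 at 0.544 were nearest to the other cells. NASP was at 199 CPM against 494 CPM elsewhere.

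**Figure D3:**
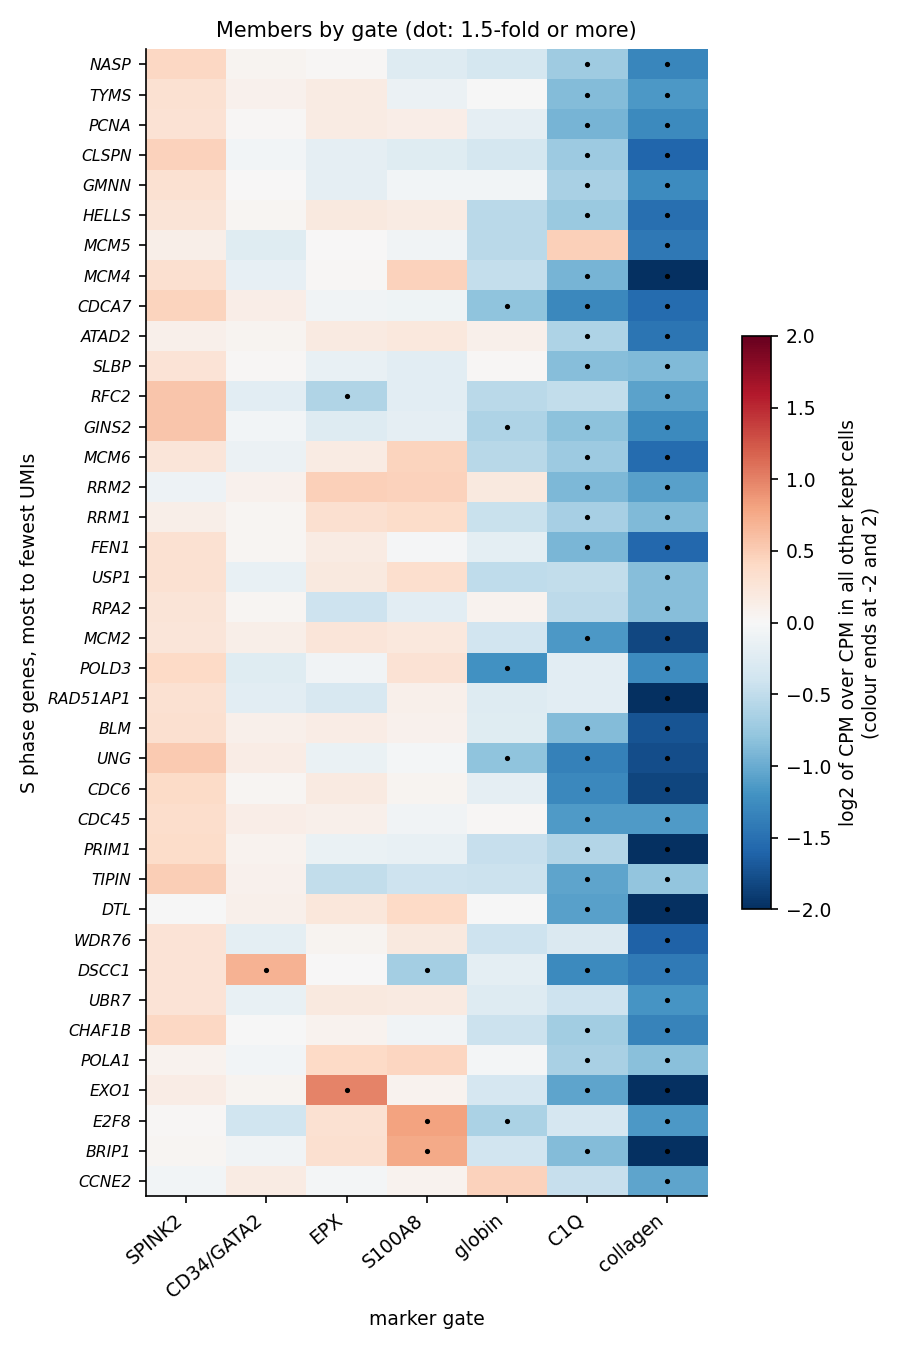
Each of the 38 genes (rows, most UMIs at the top) by marker gate, coloured by the log2 ratio of its CPM to that in all other kept cells. Dots mark 1.5-fold or more, which 28 genes reach downward in the C1Q gate, 38 in the collagen gate and none in the SPINK2 gate.

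Groups of members by role kept nearly the same shares of the list. The helicase and origin group made 22.1% of the list in the SPINK2 gate, 24.0% in the S100A8 gate, 24.5% in the C1Q gate and 19.5% in the collagen gate. Nucleotide supply ranged from 12.9% in the C1Q gate to 16.8% in the collagen gate, with 16.6% in the globin gate. Histone and chromatin genes ranged from 28.9% in the S100A8 gate to 32.1% in the CD34/GATA2 gate. Relative to the SPINK2 gate, nucleotide supply in the globin gate stood at 0.879 while fork protection and repair stood at 0.623.

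Cells within a gate differed widely. With each cell thinned to 5000 UMIs at random, which left out 68 shallower cells, the SPINK2 gate had a median of 18 list UMIs per cell and its lowest 10% of cells had at most 9. The CD34/GATA2 gate had a median of 15 and its lowest 10% at most 3, and the C1Q gate had a median of 6 with its highest 10% at 19 or more. The variance over the mean, which would be near 1 if cells differed only by sampling, was 2.73 in the SPINK2 gate, 3.02 in the S100A8 gate, 4.47 in the CD34/GATA2 gate, 5.91 in the globin gate, 6.04 in the C1Q gate and 9.65 in the PF4/PPBP cells. For single genes it stayed between 0.995 for POLA1 and 1.42 for NASP over all kept cells. Their means were low, from 0.0424 UMIs per cell for CCNE2 to 2.32 for NASP. The variance over the mean depends on the mean, so these values cannot be set against those of the sums.

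The gates with a low sum held many cells with few S phase UMIs. At most 5 list UMIs were found in 4.39% (3.36 to 5.63) of SPINK2 cells, 8.29% (6.22 to 10.8) of S100A8 cells, 19.4% (17.6 to 21.2) of CD34/GATA2 cells, 31.1% (26.6 to 35.9) of globin cells, 44.7% (40.6 to 48.8) of C1Q cells, 53.6% (41.2 to 65.7) of collagen cells and 56.7% (46.7 to 66.4) of PF4/PPBP cells. The value of 5 is a point on a continuous range, and cells with 4 to 7 UMIs made up 5.43% of the SPINK2 gate and 27.1% of the C1Q gate. Cells at or below it also had fewer mitosis UMIs, 8.81 against 32.0 per 5000 in the C1Q gate and 8.26 against 35.2 in the globin gate. Before thinning they were shallower in every gate but the collagen gate. Their median was 16535 UMIs against 21221 in the CD34/GATA2 gate and 11282 against 14985 in the C1Q gate. It was 13726 against 20146 in the SPINK2 gate and 17885 against 19900 in the globin gate. In the collagen gate they were deeper, with 19617 against 14506. The part of depth in these shares was not tested. How much free RNA in droplets adds to the low values was not tested.

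**Figure D4:**
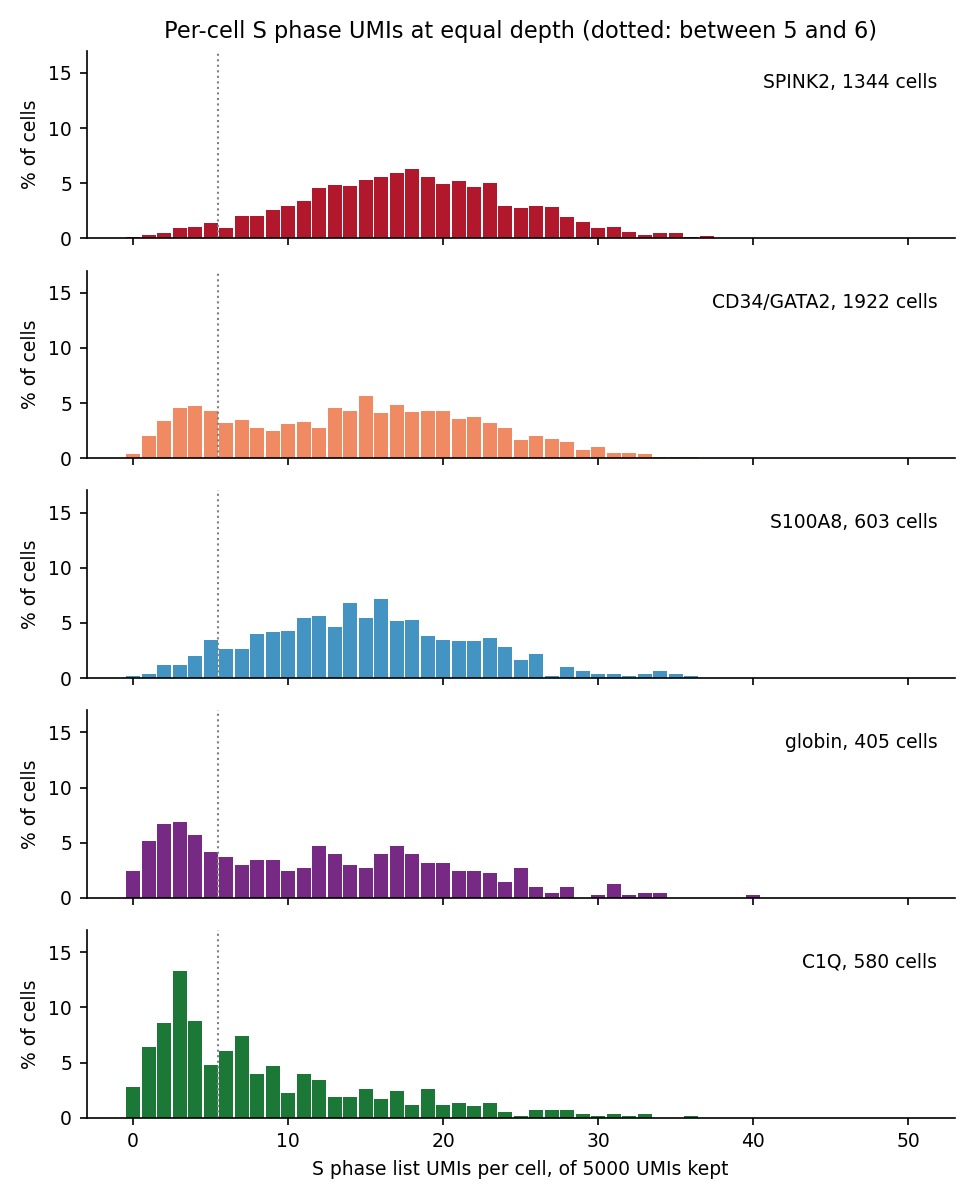
Share of cells (percent) by number of S phase list UMIs after thinning to 5000 UMIs, in 5 gates. SPINK2 and S100A8 cells form a single hump with medians of 18 and 15, whereas C1Q and globin cells also pile up at 5 or fewer (44.7% and 31.1%). CD34/GATA2 cells pile up there too (19.4%), with 91 cells at 4 UMIs, 47 at 9 and 108 at 15.

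Within the C1Q, collagen and CD34/GATA2 gates the S phase level was lower where the gate's own genes were higher. In the C1Q gate, split into 5 groups by the level of C1QA, C1QB and C1QC, it was 2578 CPM in the lowest group, then 2089, 1848 and 1590.3 CPM, and 1131 CPM in the highest. Mitosis genes went from 6275 to 2624 CPM from the lowest to the highest group, and the median depth from 16110 to 10559 UMIs. In the collagen gate the level went from 2349 CPM in the lowest 15 cells to 746 CPM in the highest 15. The S100A8 gate changed little from 3142 CPM in the lowest group to 3090 CPM in the next to highest, but was at 2777 CPM in the highest. The EPX gate had 3102 CPM in the lowest and 3284 CPM in the highest, and the globin gate 2485 CPM and 2591 CPM. In the CD34/GATA2 gate the level was 3347 CPM in the lowest group and 2382 CPM in the highest. From the lowest to the highest group, median depth went from 21246 to 18528 UMIs in the CD34/GATA2 gate and from 18483 to 11139 UMIs in the S100A8 gate. In the collagen gate it went from 14345 to 17125 UMIs. The part of depth in these differences was not tested.

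The 4 MCM genes were used to look at how the other 34 members varied from cell to cell. In the SPINK2 gate the 34 summed to 2692 CPM in 262 cells with 0 MCM UMIs of 5000 and to 3812 CPM in 221 cells with 4 or more. In the C1Q gate the same step went from 1021 to 3002 CPM, and in the globin gate from 1297 to 3778 CPM. All 34 were higher in the cells with 4 or more in the SPINK2, CD34/GATA2, C1Q and globin gates. In the S100A8 gate 33 of 34 were higher, and BLM was at 0.977. The share of all genes that were higher in the same cells is not given here, so these counts stand without a background. Median depth in cells with 4 or more and with 0 MCM UMIs was 20239 and 18787 UMIs in the SPINK2 gate and 15668 and 11634 in the C1Q gate, but 14263 and 16008 in the S100A8 gate.

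CCNE2 had the highest ratio in 4 of 5 gates. The ratio between cells with 4 or more and with 0 MCM UMIs was 3.11 in the SPINK2 gate, 3.36 in the CD34/GATA2 gate, 4.52 in the S100A8 gate and 10.8 (4.05 to 33.4) in the C1Q gate. In the globin gate CCNE2 was at 3.53, near the median of 3.32 over the 34 members, with 22 cells in the higher group. The highest there were EXO1 at 8.33, WDR76 at 7.40, CHAF1B at 7.05 and HELLS at 4.92, and further members also stood above CCNE2. The counting interval of CCNE2 reached the next member in each of the 4 gates. DTL at 2.36, UNG at 2.15, WDR76 at 2.07, EXO1 at 2.05 and CDC6 at 2.04 came next in the SPINK2 gate, where the median over the 34 was 1.44. USP1 at 1.12, RPA2 at 1.13, TYMS at 1.19, RFC2 at 1.2 and RAD51AP1 at 1.21 differed least, and NASP was at 1.27. Cyclin E, CDC6 and the MCM genes act as origins are licensed and S phase starts.

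Mitosis genes, 54 genes that peak in G2 and M, took different courses. Their sum went from 7678 CPM in SPINK2 cells with 0 MCM UMIs to 5543 CPM in those with 4 or more, and from 7423 to 4895 CPM in the S100A8 gate. In the globin gate it went the other way, from 3707 to 7173 CPM, and in the CD34/GATA2 gate from 4903 to 6215 CPM. In the C1Q gate it was 4610 CPM with 0, 5366 CPM with 1, 5247 CPM with 2 to 3 and 4498 CPM with 4 or more. CDK inhibitors were lower with more MCM UMIs in all 5 gates, from 89.4 to 54.5 CPM in the SPINK2 gate and from 680 to 305 CPM in the globin gate.

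**Figure D5:**
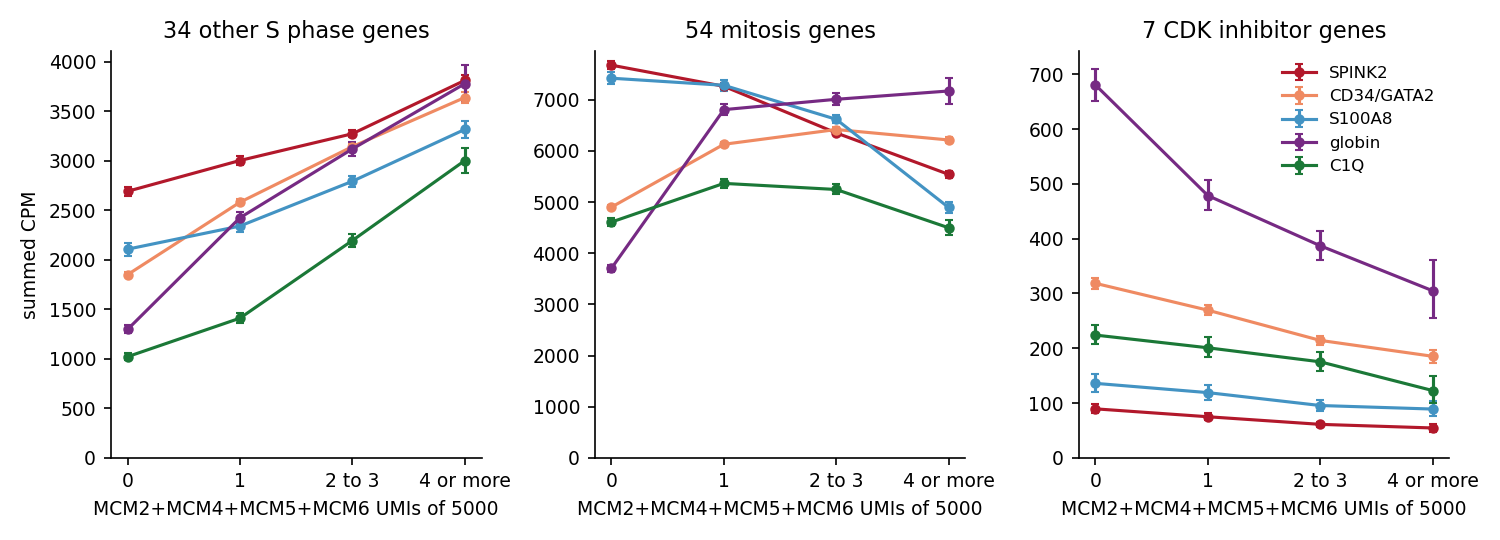
Summed CPM (95% counting interval) of the other 34 S phase genes, 54 mitosis genes and 7 CDK inhibitor genes in cells with 0, 1, 2 to 3, or 4 or more MCM UMIs of 5000, for 5 gates. The S phase lines go up in every gate, while the mitosis lines go down in SPINK2 (7678 to 5543 CPM) and S100A8 cells and up in globin cells (3707 to 7173 CPM).

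Other lists of the cell cycle set these levels in context. The 33 replication genes outside the list followed it closely, at 3328 CPM in the SPINK2 gate, 2936 CPM in the S100A8 gate, 1892 CPM in the C1Q gate and 1242 CPM in the collagen gate. In the C1Q gate 21 of the 33 were lower by 1.5-fold and none higher, where 24.9% and 15.2% of all genes were. DUT, which keeps uracil out of DNA, was at 261 CPM there and 589 CPM in the SPINK2 gate, KIAA0101, which binds PCNA, at 176 and 262 CPM, and the maintenance methyltransferase DNMT1 at 197 and 285 CPM. Mitosis genes differed less between these gates, from 6690 CPM in the SPINK2 gate to 4973 CPM in the C1Q gate and 3833 CPM in the collagen gate. In the C1Q gate 5 of 54 were lower by 1.5-fold (24.9% of all genes). There 1, GAS2L3 (2.72-fold), was higher (15.2% of all genes). In the collagen gate 39 of 54 were lower (32.8% of all genes), and in the PF4/PPBP cells 40 of 54 (37.9%). The median fold of mitosis genes in the PF4/PPBP cells was 0.507, against 0.548 for the S phase members. Mitosis over S phase UMIs was 1.87 in the SPINK2 gate, 2.62 in the C1Q gate and 3.17 in the collagen gate.

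Regulators differed between the low gates. The 7 CDK inhibitors summed to 68.7 CPM in the SPINK2 gate, 108 CPM in the S100A8 gate, 195 CPM in the C1Q gate, 255 CPM in the CD34/GATA2 gate, 523 CPM in the globin gate and 570 CPM in the collagen gate. They were higher still in the 108 PF4/PPBP cells, at 917 CPM (876 to 960). The 253 cells above several minimums had 552 CPM of them. CDKN1A (p21) was at 67.1 CPM in the C1Q gate (5.28-fold over other cells) and 223 CPM in the collagen gate, but 13.4 CPM in the globin gate. CDKN1C (p57) was at 378 CPM and CDKN2D (p19) at 114 CPM in the globin gate, and CDKN1C was at 217 CPM in the CD34/GATA2 gate and 42.7 CPM in the SPINK2 gate. CDKN2B, at 117 CPM, and CCND1, at 599 CPM, were high in the collagen gate. RB1, the brake on E2F factors, was at 53.0 CPM in the C1Q gate and 18.5 CPM in the SPINK2 gate. The E2F and RB family as a whole varied less, from 181 CPM in the collagen gate to 312 CPM in the S100A8 gate, with TFDP1 at 85.3 CPM, E2F4 at 63.7 CPM and E2F3 at 31.2 CPM in the latter. The sum of the cyclins and kinases CCND1, CCND2, CCND3, CCNE1, CCNA2, CDK2, CDK4 and CDK6 was lowest in the C1Q gate, at 361 CPM. CDK4 was at 102 CPM there against 257 CPM in the SPINK2 gate, CDK6 at 42.7 against 179 CPM and CCND3 at 118 against 111 CPM.

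Hashtags differed far less than gates. The summed level was 2911 CPM in 2136 cells of hashtag 0252, 3053 CPM in 1996 cells of 0253, 2987 CPM in 1847 cells of 0254 and 3151 CPM in 1571 cells of 0255. The highest was 1.08 times the lowest (1.07 to 1.09). With equal weights for the 6 gates that had at least 20 cells in every hashtag, the levels were 2757, 2958, 2831 and 2988 CPM and the ratio was again 1.08. Each hashtag comes from 1 pool of wells, so differences between wells and between surfaces cannot be told apart.

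Single members differed little between hashtags. Against the other 3 hashtags, CCNE2 in 0252 was the only member past 1.2-fold, at 7.05 CPM against 8.91 CPM (0.792, 0.690 to 0.905). Its level was 9.0 CPM in 0253, 8.50 CPM in 0254 and 9.29 CPM in 0255. Over all genes, 9.04% were higher and 8.28% lower by 1.2-fold in 0252, 7.35% and 10.1% in 0253, 6.69% and 9.33% in 0254, and 10.2% and 11.6% in 0255. MCM5 was at 96.1, 108, 106 and 118 CPM in the order 0252 to 0255, and NASP at 473, 473, 502 and 529 CPM. RRM2 ran otherwise, at 88.1, 94.3, 82.6 and 82.4 CPM. In 0252, 8 of 38 members were above the other hashtags, in 0253 28, in 0254 12 and in 0255 31, where 53.5%, 47.3%, 45.4% and 51.2% of all genes were.

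Within gates, the hashtags were close in SPINK2 cells and apart in C1Q cells. In the SPINK2 gate the levels were 3548, 3611, 3580 and 3607 CPM for 0252 to 0255, a ratio of 1.02 between the highest and the lowest. In the CD34/GATA2 gate they were 2975, 3028, 2918 and 3234 CPM, and in the S100A8 gate 2952, 3068, 3150 and 3464 CPM, with only 27 cells behind the last value. In the globin gate they were 2278, 2483, 2833 and 2621 CPM. In the EPX gate they were 3269, 3158.5, 2711 and 2991 CPM, from 88, 78, 43 and 29 cells. In the collagen gate they were 1503, 1498.5, 986.5 and 1129 CPM, from 11, 11, 15 and 38 cells. Hashtag 0252 thus stood above 0255 in the EPX and collagen gates. In the C1Q gate they were 1521, 2397, 1791 and 2011 CPM, a ratio of 1.58, from 173, 132, 172 and 116 cells.

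The spread in C1Q cells ran through nearly all members. Of 38, 35 were highest in 0253, where 27.8% of all genes were, and 26 were lowest in 0252, where 25.8% of all genes were. HELLS was at 58.1 CPM in 0252 and 124 CPM in 0253, with 65.5 CPM in 0254 and 86.9 CPM in 0255. PCNA was at 73.0, 122, 89.6 and 108 CPM. MCM5 was instead highest in 0255, at 204 CPM, against 90.4, 164 and 139 CPM in the others. Cells with at most 5 list UMIs of 5000 made up 55.0% (47.2 to 62.7) of C1Q cells in 0252, 34.6% (26.5 to 43.5) in 0253, 46.4% (38.7 to 54.3) in 0254 and 38.1% (29.1 to 47.7) in 0255. The median depth of C1Q cells was 11609 UMIs in 0252 and 13870 UMIs in 0253, and the part of depth in the difference was not tested.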

How the data were processed

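Counts of UMIs (10x 3′ v3.1) for genes and hashtags in 10836 barcodes were deposited by the authors, who had aligned reads to hg19 with Cell Ranger 6.0.1, together with a hashtag call per barcode (1 hashtag, doublet or negative), used as deposited. Barcodes with 1 call and at most 36000 UMIs, 6000 genes and 18% MT- UMIs were kept, after the limits in the study's methods. Levels are UMIs summed over cells per 1000000 UMIs. Intervals are exact Poisson or Clopper-Pearson (95%, counting error only). Folds compare a gate with all other kept cells over genes with at least 100 UMIs. Cells were thinned to 5000 UMIs with a fixed seed, shallower cells left out. With 1 library, no test was run. Scrublet was used only in an alternative and marked 1.17% of cells with 1 hashtag. The folds were tested on simulated counts. Members named by gate or hashtag are the 5 highest and 5 lowest folds, with those against the list's direction, and of other lists the genes with most UMIs or past the fold. HMOX1 and the other upstream neighbours, the splits by gate genes or mitochondrial share, the value of 5 list UMIs and members by hashtag within gates were chosen after seeing the data. Members, lists and gates were chosen with earlier results of these data known. Positions of genes are from GENCODE lifted to hg19, and those of the promoter stretches are on GRCh38.p14. Python 3.11.15, numpy 2.4.6, scipy 1.17.1, pandas 2.3.3 and scanpy 1.11.5 were used.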

Additional observations from a re-analysis of the deposited data

Results flagged for a closer look

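S phase transcripts were also present in barcodes outside the comparisons. Barcodes called negative for every hashtag but within the limits on UMIs, genes and mitochondrial share (809) had 2936.2 CPM of the 38 genes (2907 to 2966), and all barcodes called hashtag doublets (1339) had 2866.4 CPM (2850 to 2883), against 3016 CPM in the cells kept. They are signals in data that no comparison here used. The 541 barcodes with 1 hashtag that were over the mitochondrial limit only had 1305 CPM at a median of 9138 UMIs.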

How the results depend on the processing

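SPINK2 cells stood above CD34/GATA2 cells and hashtag 0255 above 0252 in all 13 alternatives tried, and the order SPINK2 highest and collagen lowest held in each that gave gate levels. The C1Q gate stood above the globin gate in cells with 15000 to 20000 UMIs, and the globin gate above the EPX and S100A8 gates in cells with 10 to 13% mitochondrial UMIs. The ratio of the CD34/GATA2 to the S100A8 gate crossed 1. It was 0.960 with a gate minimum of 250 CPM, 0.955 as a mean of per-cell CPM, 0.937 without the 3 members with most UMIs, 0.952 thinned to 5000 UMIs and 0.801 in cells with 15000 to 20000 UMIs, but 1.01 with a minimum of 1000 CPM, 1.05 with gates that may overlap, 1.02 with totals that leave out mitochondrial UMIs, 1.09 at a mitochondrial limit of 10% (736 cells) and 1.15 in cells with 10 to 13% mitochondrial UMIs. SPINK2 over CD34/GATA2 was 1.17 with overlapping gates, with totals that leave out mitochondrial UMIs and with no limits on cells, 1.23 as a mean per cell, 1.24 thinned, 1.14 at the 10% limit, and 1.45 and 1.06 in the narrow ranges of depth and mitochondrial share. Hashtag 0255 over 0252 was 1.21 and 1.07 in those ranges, and 1.13 at equal gate weights with a minimum of 1000 CPM. The narrow ranges were added after seeing the data. The other ratios stayed within the counting interval. At equal gate weights, the 10% limit gave no value, since gates were left without cells. The causes were not tested. No paired analysis was possible because there is 1 library. Depth limits values in the 75 collagen cells, where 3 UMIs are 2.43 CPM.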
